A study of Mus musculus with 49 samples.

Results

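Evi1 (gene symbol Mecom) was examined together with Prdm16, Hlf, Erg, Etv6, Gata2, Runx1 and Ndn, which encode nuclear regulators of blood stem cells. The members were the rows of the deposited expression table whose Ensembl identifier maps to these 8 symbols, so they made up 8 of 38253 genes, and all 8 were found. They were followed over 49 mouse RNA-seq samples in 10 groups. Of the 30 normal samples, 5 were stem cells with long-term activity (LT-HSC) and 5 with short-term activity (ST-HSC), 6 were multipotent progenitors (MPP), and 5, 5 and 4 were the common myeloid (CMP), granulocyte-macrophage (GMP) and megakaryocyte-erythrocyte (MEP) progenitors. The 19 leukaemias carry the name of the cell that received the virus, with 3 samples of STHSC:MA9, 6 of MPP:MA9, 4 of CMP:MA9 and 6 of GMP:MA9. All animals were labelled as wild-type C57BL/6J of 6 to 12 weeks, and the study used females. MA9 is the MLL-AF9 fusion, carried with GFP by a retrovirus into sorted cells that were transplanted at once into sublethally irradiated wild-type mice. The GFP-positive bulk of each leukaemia was sequenced and each sample came from its own mouse. The bulk of a leukaemia holds cells at several stages, so the leukaemia groups are not sorted stages of maturation, and the normal groups carried no vector. The labels give bone marrow as the tissue, whereas the study's methods describe leukaemia cells taken from spleen. The methods text gives no gate for MEP.

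Evi1 is a zinc-finger transcription factor named for an ecotropic viral integration site, and it is known for its role in stem cell self-renewal and for its association with aggressive myeloid leukaemia. Its locus has a distal start, from which a longer form with an amino-terminal PR domain is made, and internal starts for the shorter Evi1 form, and a value per gene adds all of them. Prdm16 is its closest relative. Hlf is a PAR bZIP factor of primitive cells, Erg and Etv6 belong to the ETS family, Runx1 and Gata2 act with Erg in the group of factors that bind together at stem cell enhancers, and Ndn (necdin) is an imprinted regulator linked to stem cell quiescence.

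The sequences just upstream of 4 starts are printed for the 3 genes whose leukaemia values varied most in kind, Evi1, which was at 0 in some leukaemias and high in others, Prdm16, which was above 1 FPKM in few, and Hlf, which was near 0 in nearly all. Each is the 250 bases upstream of a start in the RefSeq promoter table of GRCm38.p6, placed by a single exact match on NCBIM37, and is written 5′ to 3′ along the gene. Capitals mark a match to GATAA, the core of a GATA site, on either strand, so that a match on the other strand reads TTATC.

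Mecom, first start, chr3:30408682-30408931, minus strand: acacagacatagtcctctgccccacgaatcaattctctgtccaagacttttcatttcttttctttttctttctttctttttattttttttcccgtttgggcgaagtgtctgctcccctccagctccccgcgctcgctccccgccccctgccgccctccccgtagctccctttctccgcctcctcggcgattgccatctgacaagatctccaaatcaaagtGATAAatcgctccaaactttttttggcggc
Mecom, second start, chr3:29912127-29912376, minus strand: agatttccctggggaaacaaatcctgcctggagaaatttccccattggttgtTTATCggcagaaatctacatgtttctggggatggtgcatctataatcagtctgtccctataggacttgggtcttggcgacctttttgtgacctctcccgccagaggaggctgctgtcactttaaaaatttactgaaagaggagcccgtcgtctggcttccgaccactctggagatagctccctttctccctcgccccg
Prdm16, chr4:154010983-154011232, minus strand: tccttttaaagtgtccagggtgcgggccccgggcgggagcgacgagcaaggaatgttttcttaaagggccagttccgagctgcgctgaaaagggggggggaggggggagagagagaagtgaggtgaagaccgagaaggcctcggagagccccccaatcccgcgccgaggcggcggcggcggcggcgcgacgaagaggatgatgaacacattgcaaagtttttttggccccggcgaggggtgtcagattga
Hlf, chr11:90252232-90252481, minus strand: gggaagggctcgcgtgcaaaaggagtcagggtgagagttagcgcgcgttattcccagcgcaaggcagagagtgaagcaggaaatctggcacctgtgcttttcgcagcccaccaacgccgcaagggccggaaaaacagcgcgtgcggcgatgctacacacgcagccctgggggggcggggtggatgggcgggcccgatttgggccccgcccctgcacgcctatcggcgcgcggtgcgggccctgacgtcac

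The first Evi1 start lies 38249 bases inside the annotated 5′ end of the gene, and the second 534804 bases inside it. Each of the 2 Evi1 windows held 1 GATAA match, and neither held the ETS core GGAAGT or the RUNX core TGTGGT on either strand. The Prdm16 and Hlf windows held none of the 3. Over 32536 promoters of the same table and length, 22.5% held GATAA, 19.8% GGAAGT and 14.0% TGTGGT, and no overlap between motifs was counted. Such a match describes letters and no binding.

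Expression was read as FPKM, fragment numbers scaled to transcript length and library size, which can be set side by side between genes. Differences were tested on log2(FPKM + 1) with limma, on every gene averaging 1 FPKM or more over the samples of a fit and with Benjamini-Hochberg adjustment. To be called, a gene needed an adjusted p under 0.05 together with a log2 difference of more than 1 in either direction. Of the 8 members, 7 passed the filter among normal samples and in the fit of leukaemias with their normal cells. Among the leukaemias alone 6 passed, because Hlf was too low there, and Ndn passed in none of these fits. The values carry no read totals, so depth is known only in ratio, from 0.496 to 1.54 of the median sample, and no floor or interval from counts was computed.

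The labelled cell types were first set beside markers of each lineage. The 4 promyelocyte markers summed to between 16770 and 25330 FPKM in GMP and to at most 66.0 FPKM in MEP. The 6 erythroid markers were at 3256 to 5190 FPKM in MEP, which did not set MEP apart, since they were at 936.2 to 51090 FPKM in LT-HSC (median 3695) and at 217.2 to 27600 FPKM in ST-HSC (median 4406). Their highest sums among stem cells were in LT-HSC replicates 4 and 5 (51090 and 28400 FPKM) and ST-HSC replicate 4 (27600 FPKM). The neutrophil markers were also uneven among stem cells. The 6 neutrophil markers summed to 20.6, 39.9 and 37.1 FPKM in LT-HSC replicates 1 to 3 but to 69510 and 28380 FPKM in replicates 4 and 5, and ST-HSC replicates 4 and 5 held 40320 and 8372 FPKM against 48.7, 97.9 and 1148 FPKM in the other 3. The 6 megakaryocyte markers summed to 34.1 to 62.0 FPKM in MEP. That was below CMP (186.5 to 283.3 FPKM), LT-HSC (174.3 to 392.9 FPKM) and ST-HSC (326.4 to 1337 FPKM). Of 5 tested, 4 were called higher in CMP than in MEP, beside 11.8% of all genes in either direction. These markers therefore did not bear out the MEP label. Of the 8 sort and stem markers, Procr was listed at 0 in every MEP sample and Slamf1 in every CMP:MA9 sample. Neutrophil markers stood at 855.2 to 50660 FPKM in the leukaemias and macrophage markers at 75.8 to 176.1 FPKM.

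Evi1 fell with commitment in the normal cells. Its level was 28.7, 131.4, 83.2, 13.8 and 38.2 FPKM in the 5 LT-HSC samples, 91.4, 61.4, 50.2, 14.6 and 32.3 FPKM in ST-HSC, and from 25.6 over a median of 31.7 to 50.1 FPKM in MPP. These 3 groups overlapped throughout. In CMP it was 5.62, 11.9, 9.75, 8.77 and 2.28 FPKM, and every CMP sample lay below every MPP sample. In GMP all 5 samples were under 1 FPKM (0.22, 0.42, 0.98, 0.99 and 0.85), and the MEP samples held 1.57, 1.40, 1.04 and 0.04 FPKM. The 2 lowest values among stem cells belonged to replicate 4 of LT-HSC and of ST-HSC, the samples with the most neutrophil and erythroid marker RNA in their groups, and the part of that RNA in the values was not tested. Without replicates 4 and 5 of both groups, the log2 difference between LT-HSC and ST-HSC was 0.06 and that between ST-HSC and MPP 0.92 (limma adjusted p = 0.0982), so that neither was called.

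Evi1 did not differ detectably between LT-HSC and ST-HSC (log2 difference 0.06, SE 0.46, limma adjusted p = 0.957) nor between ST-HSC and MPP (0.30, SE 0.44, adjusted p = 0.693). It was higher in MPP than in CMP (2.17, SE 0.44, limma adjusted p = 0.00114), and higher in CMP than in GMP (2.24, SE 0.46, adjusted p = 0.000371) and than in MEP (2.04, SE 0.49, adjusted p = 0.00206). The drop fell on the step from MPP to CMP and on both branches from CMP.

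Hlf was high in all 3 early groups, with its highest mean in MPP, and fell in the committed progenitors. It was at 85.5 ± 56.4 FPKM (SD, n = 5) in LT-HSC, 76.4 ± 19.2 FPKM (SD, n = 5) in ST-HSC and 133.3 ± 34.2 FPKM (SD, n = 6) in MPP. It was at 20.4 ± 6.03 FPKM (SD, n = 5) in CMP, 5.26 ± 1.42 FPKM (SD, n = 5) in GMP and 2.86 ± 1.39 FPKM (SD, n = 4) in MEP. The ranges of MPP and CMP, and of CMP and GMP, did not overlap, and the log2 differences were 2.66 (SE 0.29, limma adjusted p = 2.60e-07) and 1.75 (SE 0.30, adjusted p = 4.14e-05). Replicate 4 of LT-HSC (35.1 FPKM) and of ST-HSC (49.6 FPKM) held the least Hlf in their groups. These samples, with the most neutrophil and erythroid marker RNA of their groups, were also lowest there for Prdm16, Etv6, Runx1 and Ndn. For Gata2 this held in LT-HSC only. The part of that RNA in the group means, and so in the order of LT-HSC, ST-HSC and MPP, was not tested.

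Prdm16 was a low-abundance transcript in every normal group. Its level was 2.23 to 10.5 FPKM in LT-HSC, 1.46 to 6.18 FPKM in ST-HSC, 2.60 to 6.12 FPKM in MPP, 1.03 to 4.46 FPKM in CMP, 0.79 to 1.29 FPKM in GMP and 0.38 to 0.65 FPKM in MEP. All MEP samples lay below all CMP samples, with a log2 difference of 0.91 (SE 0.30, limma adjusted p = 0.0233) that stayed under the fold threshold. Its difference between MPP and CMP was 0.88 (SE 0.28, adjusted p = 0.0292).

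The ETS factors were expressed throughout. Erg, also an endothelial factor, was at 72.9 ± 22.5 FPKM (SD, n = 5) in LT-HSC, 76.1 ± 10.9 FPKM (SD, n = 5) in ST-HSC, 101.1 ± 11.5 FPKM (SD, n = 6) in MPP and 50.4 ± 11.4 FPKM (SD, n = 5) in CMP. It was lower in GMP (20.96 ± 1.57 FPKM, SD, n = 5) and in MEP (15.5 ± 5.81 FPKM, SD, n = 4). Etv6, a repressor needed for adult stem cell survival, was the most abundant member in every normal group except MEP, from 100.03 to 221.2 FPKM over LT-HSC, ST-HSC, MPP and CMP and from 90.8 to 110.1 FPKM in GMP. In MEP, where Gata2 was higher, Etv6 was at 42.6 to 46.8 FPKM, below CMP by 1.76 on the log2 scale (SE 0.15, limma adjusted p = 6.90e-10). Runx1, the core-binding factor subunit essential for the first blood stem cells, was also lowest in MEP among the normal groups. It was at 16.1 ± 2.70 FPKM (SD, n = 4) in MEP against 37.6 to 62.1 FPKM in CMP (1.57, SE 0.12, limma adjusted p = 1.75e-10). The highest normal mean of Runx1 was in CMP (49.9 FPKM), whereas that of Etv6 was in MPP (210.3 FPKM). All 5 LT-HSC samples held less Runx1 than all 5 ST-HSC samples, 29.8 ± 3.19 against 42.8 ± 4.16 FPKM (SD, n = 5 each), a log2 difference of -0.51 (SE 0.12, adjusted p = 0.00569) that was under the fold threshold.

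Gata2, like Runx1, did not follow Evi1 and Hlf. This zinc-finger factor of stem cells, megakaryocyte-erythroid progenitors and mast cells was highest in CMP, at 65.6 to 79.5 FPKM, and nearly as high in ST-HSC (46.4 to 70.6 FPKM) and MEP (43.7 to 66.7 FPKM). It was lower in MPP, at 29.3 to 43.2 FPKM, than in every ST-HSC and every CMP sample. In LT-HSC it was at 26.9 to 72.7 FPKM, with the least in replicate 4. The lowest normal group was GMP, at 4.61 to 16.6 FPKM, and the log2 difference between CMP and GMP was 2.74 (SE 0.23, limma adjusted p = 3.76e-10), while CMP and MEP differed by 0.39 (SE 0.24, adjusted p = 0.233). MPP was below CMP by 1.03 (SE 0.22, adjusted p = 0.00167), just past the fold threshold, and this call was lost with median-ratio scaling (log2 difference -0.98), with the replicate block (-0.98) and without MPP replicate 6 (-0.98). Gata1, the relative of Gata2 that takes over in erythroid and megakaryocytic cells, was likewise lower in MPP (2.44 FPKM) than in ST-HSC (13.6 FPKM) and CMP (23.4 FPKM).

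Ndn had its highest level in LT-HSC. It was at 3.22, 5.11, 3.09, 1.12 and 2.12 FPKM in LT-HSC, at 0.33 to 1.21 FPKM in ST-HSC, at 0.04 to 0.66 FPKM in MPP and at most 0.13 FPKM in CMP. It was listed at 0 in all 5 GMP samples. Its mean was too low for the test, and with no filter on low values LT-HSC exceeded ST-HSC by 1.08 (SE 0.18, limma adjusted p = 0.000669), whereas in a fit of these 2 groups alone the adjusted p was 0.159. Other imprinted growth genes were called between the same groups, with Meg3 at 4.39 against 0.860 FPKM, Phlda2 at 10.6 against 4.00 FPKM and Cdkn1c, an inhibitor of the cell cycle, at 4.19 against 1.01 FPKM, all 3 lost in the fit of 2 groups alone. These were 3 of 6 tested imprinted genes, beside 2.26% of all genes called in either direction at this step.

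**Figure D1:**
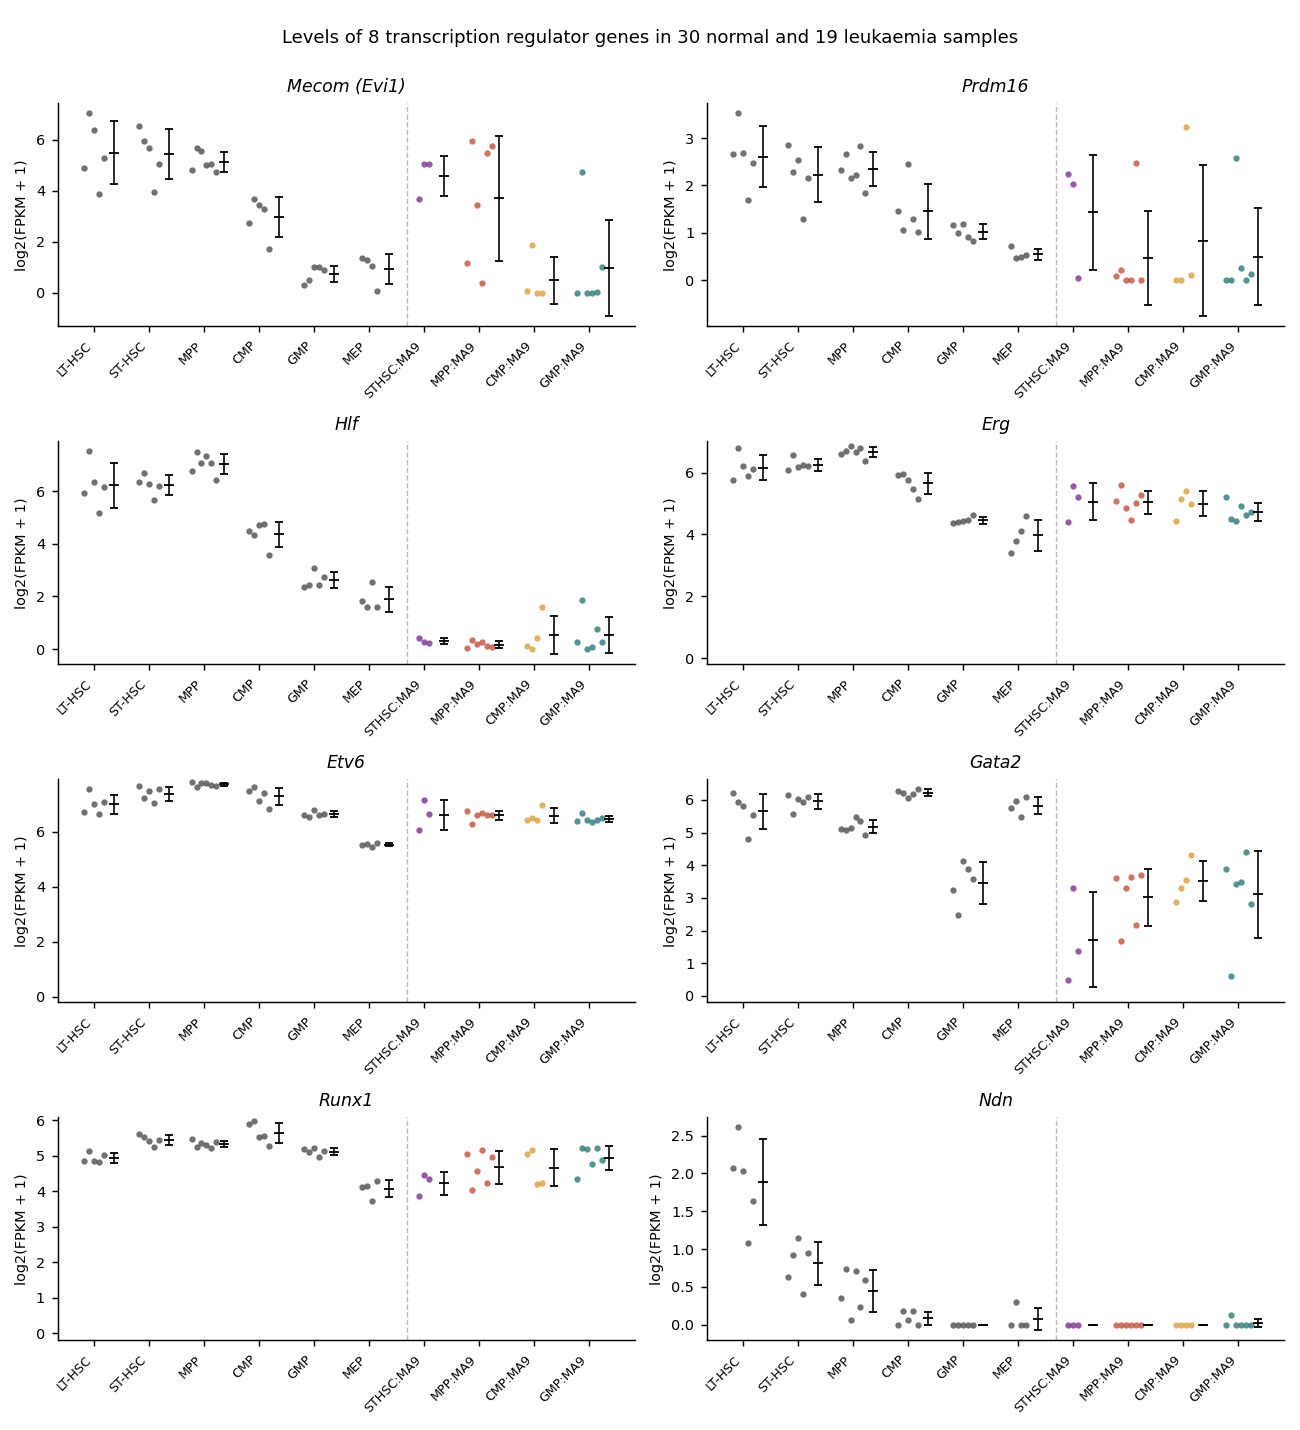
Level of each of the 8 genes, as log2(FPKM + 1), in every sample of the 6 normal groups (grey) and the 4 leukaemia groups (coloured), 1 panel a gene, with the mean and SD of each group drawn to the right of its points. Evi1 and Ndn run down from LT-HSC to GMP, Hlf drops after MPP and lies near 0 in most leukaemias, and Evi1 spreads from 0 to 61.99 FPKM there.

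Set against all genes, the members were called most often at the branch points after MPP. None of the 7 tested members was called between LT-HSC and ST-HSC, where 2.26% of genes were called, or between ST-HSC and MPP, where 3.44% were. Between MPP and CMP 4 of 7 were called (Evi1, Hlf and Erg higher in MPP, Gata2 lower), beside 4.32% of all genes. The Erg difference at this step, 1.01 (SE 0.18, limma adjusted p = 0.000218), was just past the fold threshold and fell under it, to between 0.88 and 0.99, when MPP replicate 3 or 5 or CMP replicate 4 or 5 was left out. Between CMP and GMP 4 of 7 were called, all higher in CMP (Evi1, Hlf, Erg and Gata2), beside 11.2% of all genes. The Erg call at this step was lost under median-ratio scaling (0.97), which removes a shift of 0.19 in the median of all genes. Between CMP and MEP 5 of 7 were called, all higher in CMP (Evi1, Hlf, Erg, Etv6 and Runx1), beside 11.8%, and the shift of the median there was 0.14. All 7 differed among the 6 normal groups by the F test, as did 78.4% of all genes.

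**Figure D2:**
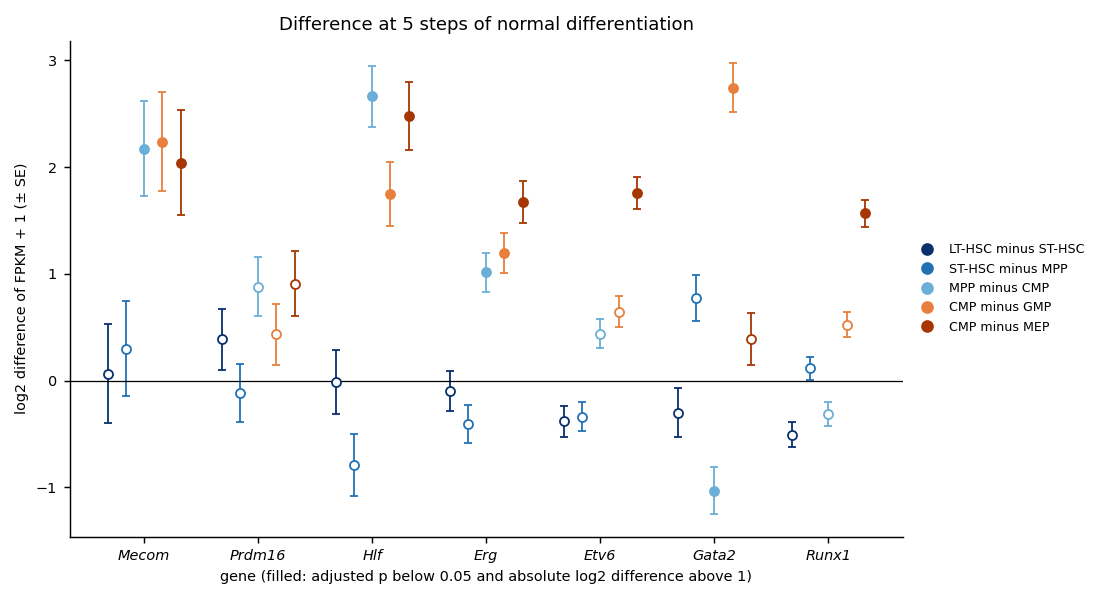
Difference in log2(FPKM + 1) with its SE at 5 steps of normal differentiation, earlier minus later cell, for the 7 tested members. Filled points passed the adjusted p and fold thresholds, and they lie at the MPP to CMP step and at the 2 branches from CMP.

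Other stem cell factors were counted at the same steps. Of this list, 25 of 27 genes in the table were tested. None was called between LT-HSC and ST-HSC, but 5 were between ST-HSC and MPP, where no member was called, 2 of them higher in ST-HSC and 3 lower. Between MPP and CMP 4 were called, 2 in each direction, with a median log2 difference of 0.24 beside -0.03 over all genes. Between CMP and GMP 16 were called, 15 of them higher in CMP, with a median log2 difference of 1.21 beside 0.20 over all genes. The 16 included Zfpm1, the GATA partner Fog1, at 39.1 against 0.818 FPKM, the repressor Gfi1b at 52.6 against 1.56 FPKM, the early response gene Egr1 at 63.8 against 3.71 FPKM and the homeobox gene Meis1 at 52.4 against 6.94 FPKM. Between CMP and MEP 13 were called and 12 were higher in CMP, Gfi1b being the exception, with a median of 0.94 beside 0.14 over all genes. Of relatives of the members, 10 of 31 were called at that step, 9 of them higher in CMP, Runx2 at 46.2 against 5.19 FPKM and Fli1 at 57.6 against 16.7 FPKM among them.

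The genes whose order over the 30 normal samples was most like that of Evi1 were, as a description over 11881 genes, Dst (Spearman rho 0.97), Anxa4 (0.96), Nwd1 (0.96), 8430419K02Rik (0.96) and Trpc6 (0.96). Among the members the likeness ran from Hlf (0.88, rank 107) and Prdm16 (0.87, rank 130) over Erg (0.82), Etv6 (0.69) and Runx1 (0.36) to Gata2 (0.24, rank 3845). These samples share the step structure of differentiation, so that any gene of early cells ranks high.

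In the leukaemias Evi1 ran from 0 to 62.0 FPKM, with a wide spread inside MPP:MA9 and GMP:MA9. It was 11.9, 32.2 and 31.9 FPKM in STHSC:MA9, and 1.25, 62.0, 9.92, 0.30, 43.4 and 53.4 FPKM in MPP:MA9. In CMP:MA9 it was 0.03, 2.65, 0 and 0 FPKM, and in GMP:MA9 it was 0, 25.6, 0, 0, 0.02 and 0.99 FPKM. All STHSC:MA9 samples lay above all CMP:MA9 samples, while every other pair of origins overlapped. Across the 19 leukaemias 10 were at or above 1 FPKM, 7 were at or above 10 FPKM and 5 were listed at 0. In bulk samples, fewer cells with the transcript and less transcript per cell cannot be told apart.

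**Figure D3:**
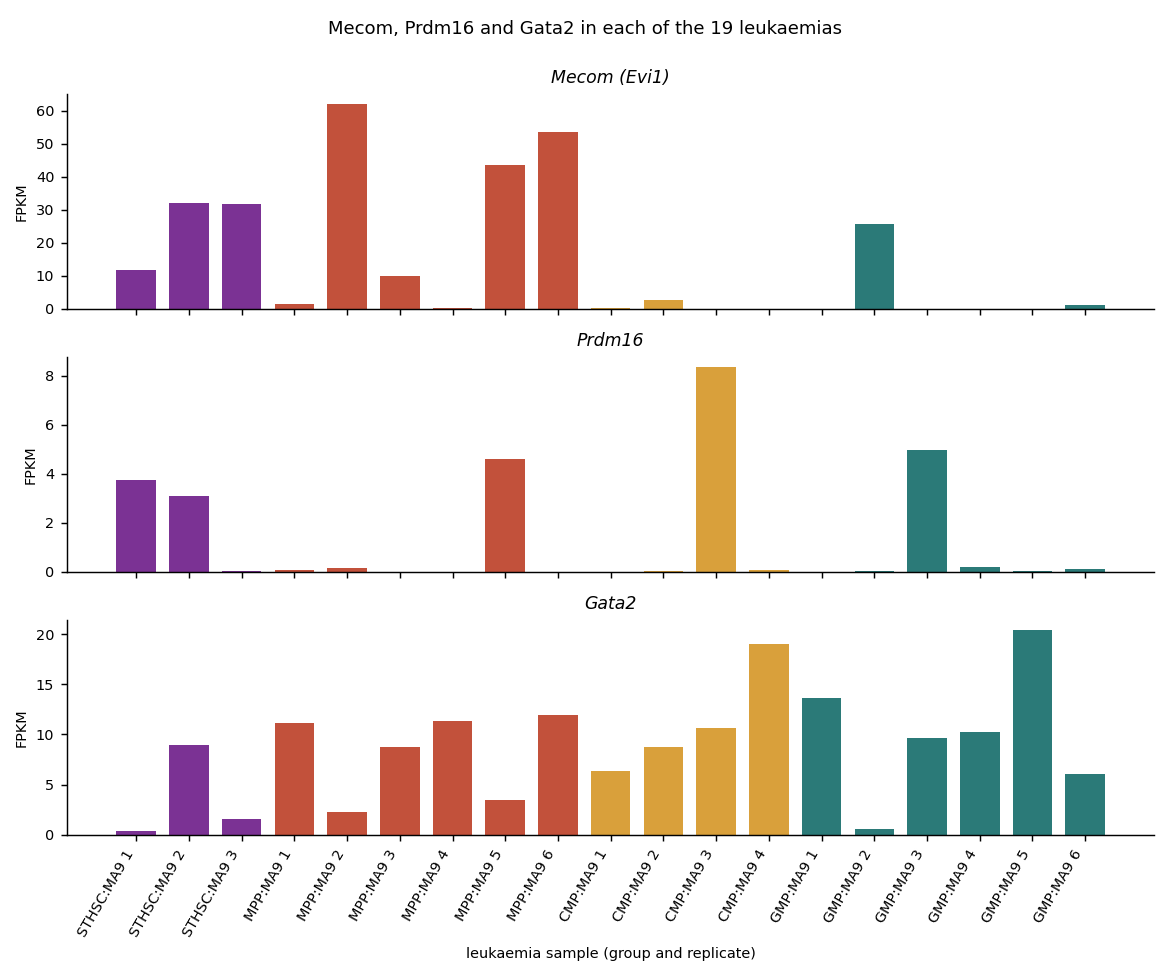
FPKM of Evi1, Prdm16 and Gata2 in each of the 19 leukaemias, 1 bar a sample, coloured by origin. Evi1 reaches 61.99 FPKM in MPP:MA9 replicate 2 and 25.6 FPKM in a single GMP:MA9 sample, Prdm16 exceeds 1 FPKM in 5 samples, and Gata2 is 0.39 and 0.53 FPKM in the 2 samples where it is lowest.

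The test by origin stood at its threshold. The limma F test over the 4 leukaemia groups gave an adjusted p of 0.0388 for Evi1, the only 1 of 6 tested members called, beside 13.3% of all genes. The call was lost when any of 14 of the 19 samples was left out, and with the GC and length correction (adjusted p = 0.0626). Over the fits without each of the 19 samples in turn, the adjusted p reached 0.0862 without STHSC:MA9 replicate 3. It was lowest, at 0.00735 and still called, without GMP:MA9 replicate 2. The mean of STHSC:MA9 and MPP:MA9 exceeded that of CMP:MA9 and GMP:MA9 by 3.43 (SE 0.80, limma adjusted p = 0.0622), so that no member was called there, beside 0.28% of all genes. With the replicate block the adjusted p was 0.0356, although the replicate numbers were not taken as pairing leukaemias. With a pseudocount of 0.1 the adjusted p was 0.0405, and over samples left out it ranged from 0.0124 to 0.203. The 14 samples whose removal ended the first call are spread over all 4 origins.

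No member was called in any of the 6 pairs of origins. Of all genes, 2.88%, 0.363% and 0.536% were called when STHSC:MA9 was set against MPP:MA9, CMP:MA9 and GMP:MA9 in turn, 0.115% and 2.23% when MPP:MA9 was set against CMP:MA9 and GMP:MA9, and 0.206% between CMP:MA9 and GMP:MA9. These shares rest on few genes and moved when single samples were left out, for STHSC:MA9 against CMP:MA9 from 44 genes to between 5 (without STHSC:MA9 replicate 2) and 195 (without STHSC:MA9 replicate 1). The largest Evi1 differences were 4.11 (SE 1.28, limma adjusted p = 0.130) for STHSC:MA9 against CMP:MA9 and 3.63 (SE 1.18, adjusted p = 0.126) for STHSC:MA9 against GMP:MA9. MPP:MA9 exceeded CMP:MA9 by 3.22 (SE 1.08, limma adjusted p = 0.380). It exceeded GMP:MA9 by 2.74 (SE 0.97, limma adjusted p = 0.0602), the lowest adjusted p of Evi1 in the 6 pairs. STHSC:MA9 and MPP:MA9 differed by 0.89 (SE 1.18, adjusted p = 0.656). Of the related factors, only the corepressor Cbfa2t3 was called in a pair, at 8.52 FPKM in STHSC:MA9 and 25.4 FPKM in MPP:MA9 (-1.38, SE 0.35, adjusted p = 0.0181), and it was not called with the GC and length correction (adjusted p = 0.109) or the replicate block (0.0848).

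Prdm16 exceeded 1 FPKM in 5 leukaemias, at least 1 of each origin. It was 3.73, 3.09 and 0.03 FPKM in STHSC:MA9, and among MPP:MA9 it was 4.58 FPKM in replicate 5 and at most 0.17 FPKM in the other 5. In CMP:MA9 it was 8.34 FPKM in replicate 3 and at most 0.08 FPKM otherwise, and in GMP:MA9 4.95 FPKM in replicate 3 and at most 0.20 FPKM otherwise. At a level of 1 FPKM, 3 leukaemias had both Evi1 and Prdm16, 7 had Evi1 alone, 2 had Prdm16 alone and 7 had neither. The CMP:MA9 and GMP:MA9 samples with Prdm16 were both listed at 0 for Evi1.

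No other member was called by origin. Hlf was at most 0.34 FPKM in 16 of the 19 leukaemias, the others being 2.04 FPKM in CMP:MA9, 2.61 and 0.69 FPKM in GMP:MA9. Ndn was listed at 0 in 18 and at 0.09 FPKM in GMP:MA9 replicate 2. Erg ran from 20.01 to 47.2 FPKM, Etv6 from 65.9 to 141.4 FPKM and Runx1 from 13.5 to 36.5 FPKM over all 19, with adjusted p of 0.613, 0.827 and 0.277 in the F test. Gata2 varied more, though its adjusted p in the same test was 0.300. It was 0.39, 8.91 and 1.57 FPKM in STHSC:MA9, 11.1, 2.23, 8.77, 11.3, 3.5 and 11.9 FPKM in MPP:MA9, 6.40 to 19.01 FPKM in CMP:MA9 and 13.6, 0.53, 9.68, 10.2, 20.4 and 6.09 FPKM in GMP:MA9.

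Gata2 ran opposite to Evi1 in several leukaemias. In GMP:MA9 the only sample with abundant Evi1, replicate 2, had the lowest Gata2 of its group by a wide margin, and in MPP:MA9 replicates 2 and 5 combined high Evi1 with the 2 lowest Gata2 values. MPP:MA9 replicate 6 did not follow, with 53.4 FPKM of Evi1 and 11.9 FPKM of Gata2, nor did STHSC:MA9 replicate 2, with 32.2 and 8.91 FPKM. The largest gap between neighbouring Evi1 values on the log2 scale was 26.5% of their range, under the third that was set to call separate clusters, so a correlation over all 19 was computed. Spearman's rho was -0.57 (permutation test, two-sided, p = 0.0129) and Pearson's r -0.62 (permutation p = 0.00413). Without the 2 samples farthest from the Evi1 median, MPP:MA9 replicates 2 and 6, r was -0.71. Replicate 6 is an exception named above, so the larger value does not show that the relation is robust. The relation was 1 of 7 computed, and these p-values are unadjusted.

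Tested across all genes, this relation did not pass. The within-origin slope of Gata2 on Evi1 was -0.34 log2 units for each log2 unit of Evi1 (SE 0.12, limma adjusted p = 0.177), and with no origin term it was -0.30 (SE 0.08, adjusted p = 0.0815). Without GMP:MA9 replicate 2 the slope was -0.18 (adjusted p = 0.813). Within MPP:MA9 rho was -0.43 and r -0.63 (exact permutation p = 0.419 and 0.161, n = 6), and within GMP:MA9 they were -0.58 and -0.96 (exact permutation p = 0.25 and 0.0333, n = 6), where 3 Evi1 values were 0 and only replicate 2 was high. None of the 5 members tested was called for the slope, beside 0.00825% of all genes. That share is a single gene, Cacna1e, a calcium channel subunit at 0.03 to 8.22 FPKM in the leukaemias (slope 0.43, SE 0.06, adjusted p = 0.0109), which is named here because it was the only call and was not called with a pseudocount of 0.1 (adjusted p = 0.0854) or the replicate block (0.645).

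Other measures moved with the 2 genes. Of the 6 mast cell and basophil markers, the summed level ranged from 2.86 to 320.9 FPKM over the leukaemias and had a rho of -0.76 with Evi1 and 0.75 with Gata2. The 6 did not move together. Cpa3, the mast cell carboxypeptidase, was at 0 to 224.6 FPKM (rho -0.84 with Evi1 and 0.67 with Gata2) and Mcpt8, a basophil protease, at 0.50 to 71.4 FPKM, while Fcer1a, a defining receptor chain, was listed at 0 in 16 of 19 (rho 0.32 with Evi1 and -0.62 with Gata2). Gzmb had a rho of 0.65 with Evi1 and 0.10 with Gata2, and that of Mcpt8, Prss34 and Ms4a2 with Evi1 was -0.31, -0.41 and -0.01. Of the other marker lists, the promyelocyte markers had a rho of 0.56 with Evi1 and the neutrophil markers 0.44, and the B cell markers had 0.55 with Gata2. Relative depth had a rho of -0.49 with Evi1 and the share of FPKM from mitochondrial genes -0.44. GMP:MA9 replicate 2, without which the Gata2 slope was -0.18, had the highest mitochondrial share (34.5%) and the lowest summed FPKM of the 19. Their part in the relation between Evi1 and Gata2 was not tested.

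**Figure D4:**
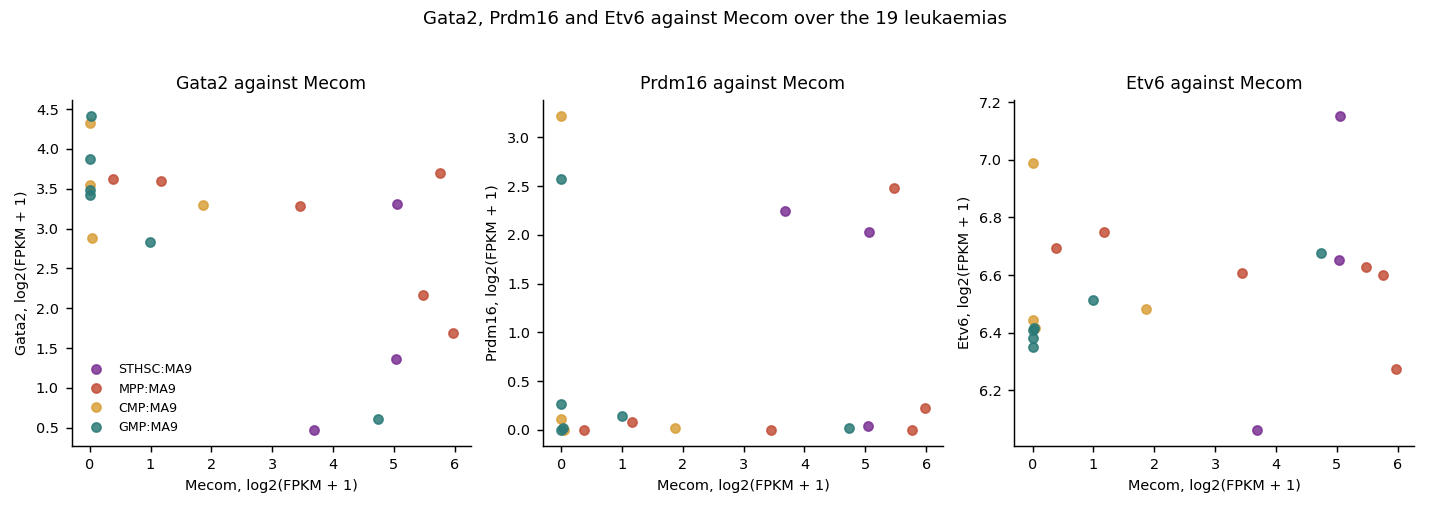
Gata2, Prdm16 and Etv6 against Evi1 (Mecom) over the 19 leukaemias, both axes log2(FPKM + 1), points coloured by origin. Gata2 runs down as Evi1 rises (rho -0.57), Prdm16 shows 5 raised samples at no particular Evi1 level, and Etv6 has a rho of 0.22 with Evi1 over all 19.

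The other 6 members had weaker relations over all 19. Spearman's rho was 0.35 for Erg, 0.22 for Etv6, 0.17 for Ndn, -0.17 for Runx1, -0.05 for Prdm16 and -0.01 for Hlf, the smallest permutation p of these being 0.139, and Pearson's r ran from -0.33 to 0.38, the smallest permutation p being 0.107. Without the 2 farthest samples r was 0.20 for Erg and 0.19 for Prdm16. Etv6 had a rho of -0.89 within MPP:MA9 (exact permutation p = 0.0333, n = 6) and 0.94 within GMP:MA9 (exact permutation p = 0.0167, n = 6). The GMP:MA9 value ranks 3 samples at 0 and 1 at 0.02 FPKM of Evi1, so it rests on order near the rounding of the table. The values of the 2 origins were not tested against each other, and no adjustment was made for the relations computed within origins.

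The genes nearest to Evi1 over the leukaemias were, among 11654 genes and as a description, Akt2 (rho 0.87), Arl11 (0.86), Tnfsf13 (0.85), C3 (0.84) and Dsp (0.83), and the most opposite were Gng11 (-0.85), Cpa3 (-0.84) and Gm7488 (-0.84). Around the locus, 15 annotated genes lie within 500 kb of Evi1 (chromosome 3, 29850221 to 30446930, minus strand, NCBIM37). Of these, 6 had a mean of at least 1 FPKM in the leukaemias (Mynn, Gm15462, Sec62, Gpr160, Phc3 and Prkci), with rho from -0.36 to 0.34. The genes that did follow Evi1 lay inside its body, Gm16722 on the other strand (rho 0.88, at most 1.26 FPKM) and Gm10258 on the same strand (0.84, at most 1.48 FPKM). Exons of Gm16722 overlap those of Evi1, and the libraries did not keep strand, so reads from the overlap cannot be assigned to either gene. In the annotation, exons of Etv6 likewise overlap those of Gm17089 (0.28 to 5.39 FPKM over the 49 samples) and exons of Runx1 those of Gm16801. No value was found for Gm16801.

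Compared with the normal cell of origin, Hlf fell in all 4 leukaemias and Gata2 in all but GMP:MA9. Hlf fell by 5.93 in STHSC:MA9 (SE 0.32, limma adjusted p = 2.78e-17), fell by 6.86 in MPP:MA9 (SE 0.26, adjusted p = 1.10e-22), fell by 3.83 in CMP:MA9 (SE 0.30, adjusted p = 3.25e-13) and fell by 2.09 in GMP:MA9 (SE 0.27, adjusted p = 4.81e-08), on the log2 scale. In each pair every leukaemia sample lay below every normal sample. Gata2 fell by 4.24 in STHSC:MA9 (SE 0.55), by 2.17 in MPP:MA9 (SE 0.43) and by 2.70 in CMP:MA9 (SE 0.50), with no overlap, and its difference in GMP:MA9 was -0.36 (SE 0.45, adjusted p = 0.515). The largest of those 3 adjusted p was 4.60e-05. Markers of lineages that use Gata2 were lower as well. Of 6 mast cell and basophil markers 6, 5, 2 and 5 were called lower at the 4 origins from STHSC:MA9 to GMP:MA9, with median log2 differences of -2.44, -2.81, -0.92 and -2.39. Of 6 erythroid markers 6, 2, 6 and 1 were called lower in this order (medians -4.04, -1.38, -4.02 and -0.50), and of 4 megakaryocyte markers tested 4, 3, 3 and 3 (medians -5.06, -1.61, -4.25 and -1.57), with 1 called higher in MPP:MA9 and 1 in GMP:MA9. Over all genes 11.9%, 13.6%, 14.8% and 8.87% were called lower and 12.3%, 13.5%, 13.0% and 13.5% higher in this order. The erythroid markers of the ST-HSC samples themselves summed to between 217.2 and 27600 FPKM. The part of these lineage markers in the Gata2 differences was not tested.

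Erg fell by 1.19 in STHSC:MA9 (SE 0.22, limma adjusted p = 3.24e-05) and by 1.62 in MPP:MA9 (SE 0.18, adjusted p = 6.37e-10), was at -0.66 in CMP:MA9 (SE 0.21) and at 0.29 in GMP:MA9 (SE 0.19). Without STHSC:MA9 replicate 1 the first of these was -0.86 and no longer passed the fold threshold. The GMP:MA9 samples held 26.2 ± 5.85 FPKM of Erg (SD, n = 6) and the 3 STHSC:MA9 samples 34.4 ± 13.5 FPKM (SD). Runx1 fell by 1.22 in STHSC:MA9 (SE 0.22, adjusted p = 2.34e-05), to 18.0 ± 3.94 FPKM (SD, n = 3). It was also at -0.98 in CMP:MA9 (SE 0.21, adjusted p = 0.000114) and at -0.66 in MPP:MA9 (SE 0.18, adjusted p = 0.00164), both under the fold threshold only, and at all 3 of these origins every leukaemia sample lay below every normal sample. Etv6 fell by 1.13 in MPP:MA9 (SE 0.13, adjusted p = 4.24e-09), as did Prdm16 by 1.87 (SE 0.48, adjusted p = 0.000942). For Prdm16 the single sample at 4.58 FPKM lay within the MPP range.

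Evi1 itself was called at 1 origin. It fell by 2.49 in CMP:MA9 (SE 0.86, limma adjusted p = 0.0130), though 1 of the 4 samples, at 2.65 FPKM, lay within the CMP range. It was at -0.85 in STHSC:MA9 (SE 0.94, adjusted p = 0.481), at -1.44 in MPP:MA9 (SE 0.74, adjusted p = 0.0902) and at 0.23 in GMP:MA9 (SE 0.78, adjusted p = 0.826), where replicate 2 alone was above the normal GMP. Without that sample the value was -0.53, and with a pseudocount of 0.1 it was -0.88. For STHSC:MA9 the value ranged from -1.22 to -0.39 with single samples left out and was never called. ST-HSC replicates 4 and 5, with the most neutrophil marker RNA of their group, held its least Evi1 (14.6 and 32.3 FPKM). A fit of STHSC:MA9 against ST-HSC without both was not run, so the small difference does not show that Evi1 was kept. The Evi1 changes did not differ detectably among origins (F test, adjusted p = 0.225).

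In counts, STHSC:MA9 had 4 of 7 members below ST-HSC, beside 11.9% of all genes lower and 12.3% higher. In MPP:MA9 5 of 7 were lower, beside 13.6% lower and 13.5% higher. In CMP:MA9 3 of 7 were lower, beside 14.8% lower and 13.0% higher, and in GMP:MA9 1 of 7 was lower, beside 8.87% lower and 13.5% higher. No member was called higher in any of the 4. The median log2 difference over the members was -1.19, -1.62, -0.98 and -0.18 in this order, beside -0.04, -0.09, -0.16 and 0.0035 over all genes. The change differed among the 4 origins for 5 of 7 members (Hlf, Erg, Etv6, Gata2 and Runx1), beside 38.0% of all genes, and the Runx1 call was lost with the GC and length correction (adjusted p = 0.0514). All 5 also differed among the normal groups. Among the leukaemia groups Erg, Etv6, Gata2 and Runx1 did not differ detectably (limma F test, adjusted p = 0.613, 0.827, 0.300 and 0.277). Group means of Hlf there were between 0.13 and 0.62 FPKM. A test of the change also passes where only the normal cells differ.

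**Figure D5:**
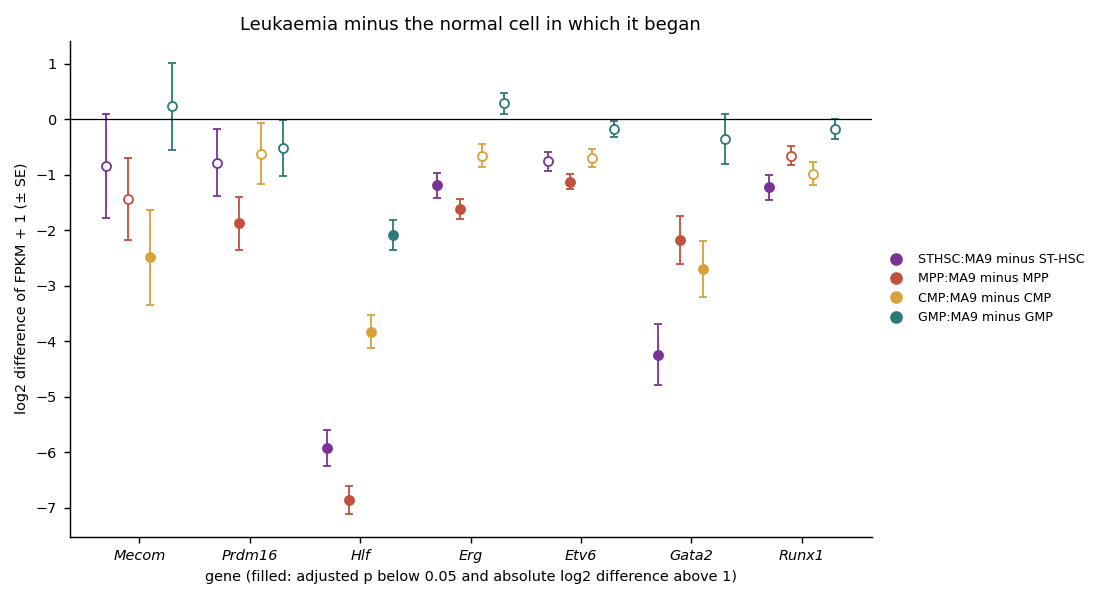
Difference in log2(FPKM + 1) with its SE between each leukaemia and the normal cell in which it began, for the 7 tested members. Filled points passed both thresholds, all of them lie below 0, and GMP:MA9 has a single filled point, Hlf.

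Of other stem cell factors, more fell than rose. Of 24 tested in this list, 11 were lower in STHSC:MA9, 11 in MPP:MA9, 11 in CMP:MA9 and 5 in GMP:MA9, while 2, 0, 2 and 4 were higher, and the list median was -1.07, -0.79, -1.10 and -0.06. Over all genes 11.9%, 13.6%, 14.8% and 8.87% were lower and 12.3%, 13.5%, 13.0% and 13.5% higher, with medians of -0.04, -0.09, -0.16 and 0.0035. Tal1, a master regulator of blood and erythroid cells, was at 36.8 FPKM in ST-HSC and 0.123 FPKM in STHSC:MA9, at 24.3 against 0.125 FPKM for MPP, at 38.8 against 0.0350 FPKM for CMP and at 6.48 against 0.0417 FPKM for GMP. Zfpm1 was at 37.9 FPKM in ST-HSC against 0.293 FPKM in STHSC:MA9. The erythroid and megakaryocyte markers counted beside Gata2 were lower in the same comparisons, and their part in these values was not tested. The genes that rose in GMP:MA9 included known targets of MLL fusions, with Hoxa9 at 28.2 against 3.01 FPKM (2.78, SE 0.25, limma adjusted p = 1.79e-11) and Meis1 at 51.1 against 6.94 FPKM (2.65, SE 0.27, adjusted p = 3.31e-10), as well as Ikzf2 at 43.3 against 5.684 FPKM.

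Genes described elsewhere as Evi1 targets or marks of Evi1-high leukaemia did not move in 1 direction. Of 10 tested, 4, 5, 4 and 2 were lower and 2, 2, 2 and 1 higher at the 4 origins in the same order, with a list median of -1.003, -1.10, -0.50 and -0.67, to be read against the same shares and medians of all genes. Gpr56, an adhesion receptor, was at 2.09 FPKM in STHSC:MA9 against 229.8 FPKM in ST-HSC, and at 5.82 against 31.9 FPKM for GMP. Angpt1, a stem cell niche ligand, was at 2.60 FPKM in STHSC:MA9 against 87.9 FPKM in ST-HSC. Cd52 rose instead, to 853.3 from 121.0 FPKM in MPP:MA9.

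Cofactors through which Evi1 and Prdm16 are known to act were also counted. Of 16 tested, 3, 3, 4 and 2 were lower and 0, 1, 1 and 2 higher, with medians of -0.34, -0.48, -0.59 and 0.01. Beside 11.9%, 13.6%, 14.8% and 8.87% of all genes lower, these counts of 16 lie near the background. The DNA methyltransferase Dnmt3b fell by 2.77, 3.05, 2.14 and 1.36 on the log2 scale at the 4 origins, with 3.85 FPKM in STHSC:MA9 against 32.6 FPKM in ST-HSC. Among relatives of the members 30 were tested, of which 6, 6, 3 and 2 were lower and 1, 3, 3 and 5 higher, with medians of -0.23, -0.27, -0.13 and 0.27. The lower counts were above the share of all genes in STHSC:MA9 and MPP:MA9 and below it in CMP:MA9 and GMP:MA9, and the higher counts were below the share of all genes except in GMP:MA9. The bZIP factor Nfil3 rose at all 4 origins, for example to 15.3 from 2.79 FPKM in STHSC:MA9, while Hlf of the same broad class fell. The necdin relative Maged1 was at 0.297 against 11.7 FPKM in STHSC:MA9 and 0.190 against 18.2 FPKM in MPP:MA9. Of the imprinted genes 19 were in the table and 5 were tested, of which 2, 3, 2 and 1 were lower and 1, 0, 0 and 0 higher, with medians of -0.93, -1.38, -0.96 and 0. Grb10, an adaptor that restrains growth signals, was lower at all 4, with 0.117 FPKM in STHSC:MA9 against 18.1 FPKM in ST-HSC.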

How the data were processed

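RNA was amplified to cDNA without keeping strand and sequenced on an Illumina instrument. The authors deposited FPKM values for 38253 Ensembl genes, estimated with RSEM and rounded to 2 decimals. The labels name mm9, and the aligner and annotation are not given in the sources used here. Labels identified 49 of the 68 columns, and the other 19 were left out. The authors tested RSEM counts with edgeR, and those counts were not part of the table, so limma on the deposited FPKM was the main test. Symbols were found for 33068 genes in GENCODE M1 (NCBIM37). Groups and replicate numbers came from the labels, which do not identify replicate experiments, and each sample came from its own mouse.

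Values were taken as log2(FPKM + 1), which understates the change of low genes. Genes averaging at least 1 FPKM were fitted with limma 3.58.1 under R 4.3.3 (moderated test with an intensity trend, two-sided, Benjamini-Hochberg), separately for the 30 normal samples, the 19 leukaemias, and the 19 leukaemias together with their normal cells. Correlations used 100000 permutations, or all 720 orders for 6 samples, with scipy 1.17.1. The members and gene lists were chosen with earlier results of these data known. Genes named are the members, the 5 highest and, in leukaemias, 3 lowest by Spearman correlation with Mecom, genes within 500 kb of it, and at most 4 called genes of largest change for each list and comparison, of which some are not reported here. The code was tested on simulated data.

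Alternatives were a pseudocount of 0.1 FPKM, no filter, median-ratio scaling, fitting the compared groups alone, a replicate block, a GC and length correction with and without that block, and leaving out each replicate. Leaving out STHSC:MA9 from the slope was chosen after seeing the data. Same-numbered LT-HSC and ST-HSC samples deviated together (correlations from 0.153 to 0.684 over 5 pairs), so the numbers were taken as pairing these groups only. In all other comparisons the block was a changed setting and no adjustment for batch or pairing.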

Additional observations from a re-analysis of the deposited data

Results flagged for a closer look

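Within groups of 4 to 10 samples, a sample was marked when its gap to the nearest other sample, as a share of the group's range on the log2 scale, passed Dixon's critical value. This held in 9 of 69 groups examined. The critical values mark about 1 in 20 groups by chance only where values are normally distributed. Groups with most samples at or near 0 are not of that kind, so the count cannot be read against that rate. Evi1 was marked in CMP:MA9 replicate 2 (2.65 FPKM, share 0.977) and in GMP:MA9 replicate 2 (25.6 FPKM, share 0.790). Prdm16 was marked in MPP:MA9 replicate 5 (4.58 FPKM, 0.909), CMP:MA9 replicate 3 (8.34 FPKM, 0.966) and GMP:MA9 replicate 3 (4.95 FPKM, 0.898). Etv6 was lowest in MPP:MA9 replicate 2 (76.4 FPKM, 0.690) and highest in CMP:MA9 replicate 4 (125.9 FPKM, 0.882). Ndn was above 0 in a single MEP sample, replicate 2 (0.23 FPKM, share 1.0), and in a single GMP:MA9 sample, replicate 2 (0.09 FPKM, share 1.0). With all other samples at 0 this share is 1.0 by construction.

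By the limma F test, the 4 origins differed in the size of the step to leukaemia for Hlf (adjusted p = 7.28e-12), Erg (2.65e-06), Gata2 (0.000421), Etv6 (0.00210) and Runx1 (0.0182). Erg, Gata2, Etv6 and Runx1 did not differ detectably among the leukaemia groups themselves, and unequal normal levels alone make such steps unequal.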

How the results depend on the processing

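The number of members called moved as follows. MPP against CMP went from 4 to 3 with median-ratio scaling and with the replicate block, also with the GC and length correction added, and to 5 with a pseudocount of 0.1 FPKM. CMP against GMP went from 4 to 3 with median-ratio scaling, CMP against MEP from 5 to 6 with that pseudocount, and CMP:MA9 against CMP from 3 to 4 with that pseudocount or the block. The differences of the change among origins went from 5 to 4 with the correction, with or without the block, and to 6 with no filter, and the F test among normal groups from 7 to 8 with no filter. LT-HSC against ST-HSC went from 0 to 1 with no filter (Ndn), and ST-HSC against MPP from 0 to 1 with the GC and length correction and to 2 when the replicate block was added. STHSC:MA9 against CMP:MA9 went from 0 to 1 in the fit of those groups alone. MPP:MA9 against GMP:MA9, and STHSC:MA9 with MPP:MA9 against CMP:MA9 with GMP:MA9, each went from 0 to 1 (Evi1) with a pseudocount of 0.1 FPKM, with the replicate block, and with that block and the GC and length correction. The F test among leukaemias went from 1 to 0 with no filter, with the GC and length correction, and with that correction and the block. With single replicates left out, the counts ranged from 3 to 5 for MPP against CMP and for STHSC:MA9 against ST-HSC, from 5 to 6 for CMP against MEP and for MPP:MA9 against MPP, and from 3 to 4 for CMP:MA9 against CMP. Those for the F test, MPP:MA9 against GMP:MA9, the early against the committed origins and STHSC:MA9 against GMP:MA9 each ranged from 0 to 1. The last 3 reached 1 (Evi1) without GMP:MA9 replicate 2, the first 2 of those also without MPP:MA9 replicate 1 or 4, and the early against the committed origins also without STHSC:MA9 replicate 1. The block changed no member's call between LT-HSC and ST-HSC, the only groups taken as paired. It was fitted over all 6 normal groups, so it also set the same replicate effect on groups not taken as paired. No paired fit of LT-HSC and ST-HSC alone was run, and the main test of this step left the pairing out.

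Directions turned only for values that were not called. Gata2 between LT-HSC and ST-HSC was 0.0681 without replicates 4 and 5 of both, and between MPP:MA9 and GMP:MA9 0.00857 with a pseudocount of 0.1. Evi1 between CMP:MA9 and GMP:MA9 was 0.0195 with the GC and length correction and block. Evi1 in GMP:MA9 against GMP was -0.884 with a pseudocount of 0.1 and -0.0672 with the correction and block. With single replicates left out, Evi1 ranged from -0.322 to 0.469 for LT-HSC against ST-HSC, from -0.945 to 0.273 for CMP:MA9 against GMP:MA9 and from -0.527 to 0.419 for GMP:MA9 against GMP, and Gata2 from -0.593 to 0.169, from -0.0919 to 0.669 and from -0.625 to 0.136 for MPP:MA9 against GMP:MA9, CMP:MA9 against GMP:MA9 and GMP:MA9 against GMP. The cause was not tested.

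Counts over all genes moved by over 1.5 times. LT-HSC against ST-HSC went from 280 to 40 in the fit of those groups alone and to 552 without replicates 4 and 5. With the GC and length correction, and then with the block as well, STHSC:MA9 against MPP:MA9 went from 349 to 89 and 16, STHSC:MA9 against CMP:MA9 from 44 to 6 and 4, STHSC:MA9 against GMP:MA9 from 65 to 35 and 7, MPP:MA9 against GMP:MA9 from 270 to 85 and 68, CMP:MA9 against GMP:MA9 from 25 to 6 and 5, the early against the committed origins from 34 to 17 and 15, and the F test among leukaemias from 1616 to 444 and 103. With the block alone they were 18 and 35 for STHSC:MA9 against CMP:MA9 and GMP:MA9, 7 for CMP:MA9 against GMP:MA9 and 942 for the F test, and MPP:MA9 against CMP:MA9 went from 14 to 3, as it did in the fit of those groups alone, and to 5 with a pseudocount of 0.1. The fit of the groups alone gave 34 for STHSC:MA9 against GMP:MA9 and 5 for CMP:MA9 against GMP:MA9. With 1 replicate left out, STHSC:MA9 against MPP:MA9 ranged from 180 to 590, against CMP:MA9 from 5 to 195 and against GMP:MA9 from 14 to 199, each lowest without STHSC:MA9 replicate 2 and highest without STHSC:MA9 replicate 1, as was the early against the committed origins, from 16 to 61. Without STHSC:MA9 replicate 3 the first 3 were 187, 19 and 24. Against CMP:MA9 the count was 20 without CMP:MA9 replicate 1 or 2 and 104 without replicate 3, against GMP:MA9 it was 41 without GMP:MA9 replicate 3, and the early against the committed origins gave 55 without CMP:MA9 replicate 3. MPP:MA9 against CMP:MA9 ranged from 3 (without CMP:MA9 replicate 1 or 2) to 16, with 9, 9 and 6 without MPP:MA9 replicates 1, 2 and 3. CMP:MA9 against GMP:MA9 ranged from 13 (without CMP:MA9 replicate 4) to 38 (without GMP:MA9 replicate 4), with 15 and 16 without CMP:MA9 replicates 2 and 3. The slope on Evi1 called 1 gene, but 0 with a pseudocount of 0.1, 3 with no filter, 11 with median-ratio scaling, 153 with no origin term and 6 without STHSC:MA9, and from 0 to 25 with single replicates left out.

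FPKM carries no counts, and low values such as those of Ndn and Hlf in leukaemias rest on few reads.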

Other observations

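Neutrophil and macrophage markers were compared between the leukaemias and their normal cells. Of 6 neutrophil markers, 5 were called higher in STHSC:MA9, 6 in MPP:MA9, 5 in CMP:MA9 and 0 in GMP:MA9. Their median log2 difference was 4.40, 6.35, 5.89 and 0.32 in this order. Over all genes 12.3%, 13.5%, 13.0% and 13.5% were called higher and 11.9%, 13.6%, 14.8% and 8.87% lower. The neutrophil markers of the ST-HSC samples themselves summed to between 48.7 and 40320 FPKM. Of 4 promyelocyte markers, 2 were called higher in STHSC:MA9 and 0 at the other 3 origins, while 1, 1, 1 and 4 were called lower, with medians of 1.62, -0.12, -0.05 and -3.73. Of 3 macrophage markers tested, 2 were called higher at each of the 4 origins, and 1 was called lower in STHSC:MA9.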
